A study of Homo sapiens with 4 samples.

Results

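Transcripts of 10 genes of the Eph receptor and ephrin family were followed in Ishikawa cells with and without a *CDYL* shRNA. They comprised 6 receptors (*EPHA1*, *EPHA2*, *EPHA4*, *EPHB2*, *EPHB3* and *EPHB4*) and 4 ligands (*EFNA1*, *EFNA4*, *EFNB1* and *EFNB2*), and were taken as a list of symbols matched to Ensembl identifiers. These 10 genes were among the 22 genes of the family, 14 receptors and 8 ligands, and among the 58522 genes listed in the deposited table. All 10 passed the filter on low counts, as did 16158 genes in all.

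Eph receptors are receptor tyrosine kinases that bind ephrins on the surface of neighbouring cells. Ephrin-A ligands are held to the membrane by a lipid anchor and bind mainly EphA receptors, whereas ephrin-B ligands span the membrane and bind mainly EphB receptors. Contact signals into both cells, forward through the receptor and in reverse through the ligand, and changes the adhesion, repulsion and spreading of cells by way of small GTPases and the actin cytoskeleton. In epithelia the family is known for keeping cell populations apart at tissue borders, and in the endometrium its members have been described at the surface that meets the embryo.

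Ishikawa cells are a human cell line from an adenocarcinoma of the endometrium. The control group carried a negative control shRNA delivered by transduction, and the *CDYL*-sh group carried an shRNA against *CDYL*, which encodes a chromodomain corepressor. Cells of both groups were selected with puromycin, and each group had 2 libraries, so 4 were sequenced. Neither the labels nor the study's methods state whether the replicate libraries are from separate cultures, or which hairpin each *CDYL*-sh library carried. The titles number the *CDYL*-sh libraries sh1 and sh2, and the study's list of hairpins holds *CDYL*-sh1, *CDYL*-sh2 and *CDYL*-sh3. The study gives knockdown efficiencies in Ishikawa cells for *CDYL*-sh1 and *CDYL*-sh3. No source used here says that the numbers in the titles are those of the hairpins. The p-values measure only the spread between these libraries, which may be technical.

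The promoters of 3 members are shown because *EPHA2* was the member that passed the test below, *EPHB3* the most abundant member, and *EFNA1* the gene of the ligand that EphA2 binds best. All 10 members matched a RefSeq promoter of 300 bases, from 250 before to 50 after the annotated start, on GRCh38.p14. Both strands were searched for CTTTGAN (TCF/LEF), GTGGGAA (RBPJ), NACGTG (HIF), TGANTCA (AP-1) and GGGCGG (SP1), and capitals mark the matches, which read CCGCCC where GGGCGG lies on the other strand. The *EPHA2* window is chr1:16156020-16156319 on the minus strand, the *EPHB3* window is chr3:184561535-184561834 on the plus strand, and the *EFNA1* window is chr1:155127626-155127925 on the plus strand.
EPHA2: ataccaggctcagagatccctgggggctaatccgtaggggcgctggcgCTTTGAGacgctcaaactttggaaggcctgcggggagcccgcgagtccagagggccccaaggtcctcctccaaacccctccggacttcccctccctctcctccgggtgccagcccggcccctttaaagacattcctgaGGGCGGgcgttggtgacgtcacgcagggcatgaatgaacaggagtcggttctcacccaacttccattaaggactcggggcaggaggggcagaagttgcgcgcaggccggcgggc
EPHB3: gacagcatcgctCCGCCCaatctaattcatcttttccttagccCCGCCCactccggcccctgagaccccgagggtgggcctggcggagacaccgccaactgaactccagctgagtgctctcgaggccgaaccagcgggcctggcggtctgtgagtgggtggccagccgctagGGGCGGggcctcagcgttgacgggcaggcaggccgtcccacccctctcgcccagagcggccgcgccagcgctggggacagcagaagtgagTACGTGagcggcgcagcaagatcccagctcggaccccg
EFNA1: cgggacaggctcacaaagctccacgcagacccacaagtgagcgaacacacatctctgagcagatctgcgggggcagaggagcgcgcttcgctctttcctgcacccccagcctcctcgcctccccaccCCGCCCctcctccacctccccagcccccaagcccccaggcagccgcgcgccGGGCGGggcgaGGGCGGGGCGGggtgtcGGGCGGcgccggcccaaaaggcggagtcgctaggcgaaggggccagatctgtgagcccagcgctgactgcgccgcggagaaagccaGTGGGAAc

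The 3 windows held different letters beside a shared GC-rich composition. *EPHA2* had 1 CTTTGAN match, 202 bases before the start, and 1 GGGCGG match 64 bases before it. *EPHB3* had 1 NACGTG match, 13 bases after the start, and 3 GGGCGG matches. *EFNA1* had 1 GTGGGAA match, 43 bases after the start, and 5 GGGCGG matches, of which those 61 and 56 bases before the start overlap by 1 base. Over the first listed start of each of the 10 members, the TCF/LEF, RBPJ and HIF motifs each occurred in 1 promoter, the AP-1 motif in 0 and the SP1 motif in 10. Of all 35116 promoters of this length, 12.8% held the TCF/LEF motif, 6.25% that of RBPJ, 21.4% that of HIF, 7.71% that of AP-1 and 45% that of SP1. CpG dinucleotides numbered 12 to 49 in the members' promoters, against a median of 14 over all promoters. The GC content was 64.3% in *EPHA2*, 69.0% in *EPHB3* and 71.7% in *EFNA1*, against a median of 58.7% over all promoters.

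The primer pair that the study used for *EPHA2* mRNA in RT-qPCR is shown to place that assay on the transcript counted here.
EPHA2-F: TGGCTCACACACCCGTATG
EPHA2-R: GTCGCCAGACATCACGTTG

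Both primers matched the canonical transcript ENST00000358432 over all 19 bases, and all of these bases are coding. The forward primer lies in exon 2 of 17, from 16150904 to 16150922 on chromosome 1 of GRCh38. The reverse primer lies in exon 3, from 16148973 to 16148991, so the product of 102 bp crosses an intron. The RT-qPCR measurements themselves were not analysed here.

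The libraries held 22341852 to 27688447 counts. *CDYL* mRNA stood at 50.4 and 53.0 CPM (counts scaled to the library size after TMM) with the control shRNA and at 11.4 and 9.70 CPM with the *CDYL* shRNA. Both *CDYL*-sh libraries were below both control libraries (log2 fold change -2.28, standard error 0.13, adjusted p = 4.26e-09). Every adjusted p comes from the quasi-likelihood test of edgeR with Benjamini-Hochberg adjustment, unless another tool is named. The main fit was adjusted over all 16158 genes. Alternative analyses were adjusted over the genes tested in each, which were 16723 to 16759 in the fits without 1 library. At an adjusted p under 0.05, 25.7% of the genes tested were called, 13.6% as higher and 12.1% as lower in *CDYL*-sh. The 7 epithelial markers were all detected, with a summed FPKM of 2430 to 2620 in control and 2340 to 2450 in *CDYL*-sh.

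The 3 most abundant receptors made up most of the family's mRNA in these cells. Levels of different genes were compared on the FPKM scale, which is normalized for transcript length and library size. Such a comparison rests on the length assigned to each gene. *EPHB3* stood at 73.4 ± 1.2 FPKM (SD, n = 2) in control, *EPHA2* at 70.4 ± 1.39 and *EPHB4* at 36.3 ± 0.127. These 3 genes held 70.3% of the summed FPKM of the 22 family genes in control and 66.7% in *CDYL*-sh. The 10 members together held 87.6% and 87.1%.

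A middle set of 4 genes followed, between 7 and 13 FPKM in control. *EPHA1* stood at 12.2 ± 0.184, *EFNA4* at 12 ± 0.643, *EFNA1* at 9.59 ± 1.57 and *EFNB1* at 7.35 ± 0.375. *EPHB2* (1.73 ± 0.198), *EFNB2* (1.12 ± 0.233) and *EPHA4* (0.270 ± 0.240) were low. In this order of control levels, *EPHA1* and *EFNA4* were the neighbours whose libraries overlapped, and every other neighbouring pair of members was separated in both control libraries. In *CDYL*-sh the order of the 3 leading receptors was kept, and the overlapping neighbours were *EFNA4* with *EFNA1*, *EFNA1* with *EPHA1*, and *EFNB2* with *EPHB2*.

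**Figure D1:**
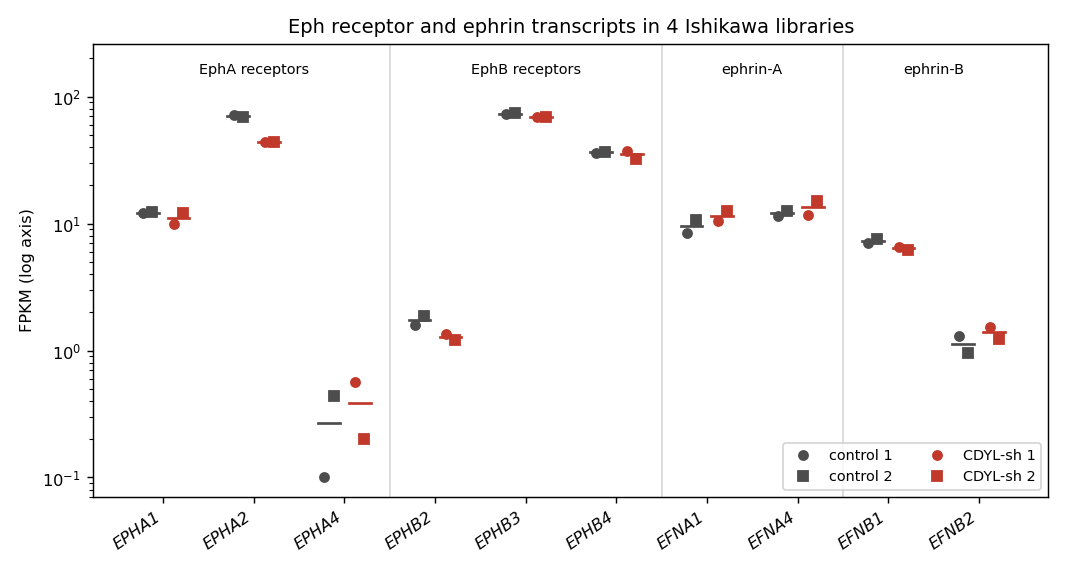
FPKM of the 10 Eph receptor and ephrin genes on a log axis in the 2 control libraries (grey) and the 2 *CDYL*-sh libraries (red), with circles for replicate 1, squares for replicate 2 and a line at the mean of each group. *EPHB3*, *EPHA2* and *EPHB4* lie above 30 FPKM in all 4 libraries, and *EPHA2* shows the widest gap between the groups among these 3.

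*EPHA2* was the member that fell. It lies on the minus strand of chromosome 1 of GRCh38 from 16124337 to 16156069 (ENSG00000142627), and encodes the EphA receptor best known from epithelia. The controls held 5531 and 5386 counts of it, and the *CDYL*-sh libraries 3528 and 2693. Scaled for library size, these were 199 and 203 CPM in control and 126 and 122 CPM in *CDYL*-sh. Levels within a group were close together, and both *CDYL*-sh libraries lay well below both control libraries. The *CDYL*-sh level was 61.8% of control (log2 fold change -0.69, standard error 0.10, 95% interval -0.91 to -0.48, adjusted p = 9.14e-05). Of all genes tested, 6.08% had a lower fold change. The study marks *EPHA2* as a gene of endometrial receptivity that changed in these same libraries, so its direction here is not independent evidence.

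The *EPHA2* call passed in each of the 17 alternative analyses, with log2 fold changes from -0.73 to -0.64 and adjusted p from 8.83e-14 to 0.0372. The analysis with offsets for length and GC content gave -0.64 (adjusted p = 0.000111). On the FPKM scale *EPHA2* was 71.41 and 69.45 in control and 44.03 and 43.56 in *CDYL*-sh. Its share of the summed FPKM of the family was 28.1% and 26.9% in control and 19.8% and 19.6% in *CDYL*-sh. It remained the family's second most abundant transcript by mean FPKM in both groups.

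The other EphA members did not pass the test. *EPHA1*, the receptor with which the family was founded, is on chromosome 7, minus strand (143390289 to 143408856). It stood at 29.7 and 32.6 CPM in control and at 25.7 and 28.7 CPM in *CDYL*-sh. Both *CDYL*-sh libraries were below the control libraries by a margin smaller than the spread within a group (log2 fold change -0.20, 95% interval -0.46 to 0.07, adjusted p = 0.266). *EPHA1* shares 82 bp of exon with *ZYX* on the opposite strand, 1.75% of its exonic length. The alignment is stated to have used an orientation mode, but the strand setting of the counting is not given in the sources used here, so reads from those bases cannot be assigned with certainty.

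*EPHA4*, which binds ephrins of both classes, was close to the limit of detection. It is on chromosome 2, minus strand (221418027 to 221574202). It had 10 and 11 counts in control and 26 and 13 counts in *CDYL*-sh, or 0.359 and 0.415 against 0.928 and 0.589 CPM. Both *CDYL*-sh libraries were above both control libraries in CPM, but the interval of the log2 fold change of 0.87 ran from -0.16 to 2.14 (adjusted p = 0.198), so a difference was not detectable at this depth. In FPKM the groups overlapped, with 0.10 and 0.44 in control and 0.57 and 0.20 in *CDYL*-sh. The length implied by its counts and FPKM varied from 0.927 to 3.61 kb between libraries, so its FPKM did not follow its counts. On the opposite strand the long noncoding RNA gene ENSG00000272944 shares 353 bp of exon with *EPHA4* and had 0 to 4 counts.

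None of the 3 EphB members passed the test, although each was lower in both *CDYL*-sh libraries in CPM. *EPHB3*, known with *EPHB2* for sorting cells along the crypts of the intestine, is on chromosome 3, plus strand (184561785 to 184582408). It stood at 231 and 242 CPM in control and 213 and 208 CPM in *CDYL*-sh. The groups did not overlap, and the difference was a log2 fold change of -0.16 (95% interval -0.38 to 0.05, adjusted p = 0.254). *EPHB3* is thus bounded to a smaller change than *EPHA2*, whose interval ended at -0.48, although the difference between these 2 genes was not tested.

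*EPHB4*, the receptor of ephrin-B2 in vessels, is on chromosome 7, minus strand (100802565 to 100827523). It stood at 126 and 128 CPM in control and at 122 and 123 CPM in *CDYL*-sh. These 4 values lay closer together than those of any other member relative to their level, and the log2 fold change was -0.05 (95% interval -0.26 to 0.16, adjusted p = 0.743). In FPKM its groups overlapped. *EPHB4* shares 69 bp of exon, 1.07% of its exonic length, with *SLC12A9* on the opposite strand.

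*EPHB2* was low in these cells. It is on chromosome 1, plus strand (22710839 to 22921500), with counts of 168 and 185 in control and 150 and 116 in *CDYL*-sh. It stood at 6.03 and 6.97 CPM in control and 5.36 and 5.26 CPM in *CDYL*-sh. The groups did not overlap, but the interval of the log2 fold change of -0.29 ran from -0.72 to 0.13 (adjusted p = 0.308). The microRNA gene *MIR4253* shares 34 bp of exon with it on the opposite strand and had 0 counts.

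The ephrin-A ligands were level or somewhat higher in *CDYL*-sh, and neither passed the test. *EFNA1* encodes ephrin-A1, the main ligand of EphA2, and is on chromosome 1, plus strand (155127876 to 155134899). It stood at 9.80 and 12.5 CPM in control and 12.6 and 14.5 CPM in *CDYL*-sh. The highest control library nearly met the lowest *CDYL*-sh library, and the log2 fold change was 0.28 (95% interval -0.07 to 0.64, adjusted p = 0.238). Without control replicate 2 it was 0.46 and without control replicate 1 it was 0.10, so its size depended on which control library was kept. It also depended on the model. With all 4 libraries, *EFNA1* passed with a block for the replicate number and offsets for GC content and length (0.34, adjusted p = 0.0412). With the offsets alone it did not pass (0.34, adjusted p = 0.073). In FPKM the *EFNA1* groups overlapped, with 8.48 and 10.7 in control and 10.41 and 12.48 in *CDYL*-sh.

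*EFNA4* encodes ephrin-A4 and is upstream of *EFNA1* on the same strand of chromosome 1 (155063737 to 155069553). It stood at 10.6 and 11.9 CPM in control and 10.5 and 14 CPM in *CDYL*-sh. The control values lay between those of the *CDYL*-sh libraries, and the log2 fold change was 0.12 (95% interval -0.24 to 0.49, adjusted p = 0.640). Without *CDYL*-sh replicate 2 it was -0.09, so its sign rested on that library. *EFNA4* was the member whose counts were not all whole, and it shares 189 bp of exon, 15.04% of its exonic length, with the readthrough gene *EFNA4-EFNA3*. That gene was assigned at most 10.04 counts in a library, against 294.98 to 315 counts for *EFNA4*.

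The ephrin-B ligands differed in level and neither passed the test. *EFNB1* encodes ephrin-B1 and is on chromosome X, plus strand (68829021 to 68842160). It stood at 21.1 and 23.3 CPM in control and at 19.4 and 18.8 CPM in *CDYL*-sh. Both *CDYL*-sh libraries were below both control libraries, with a log2 fold change of -0.22 (95% interval -0.50 to 0.06, adjusted p = 0.244). *EFNB2* encodes ephrin-B2 and is on chromosome 13, minus strand (106489745 to 106535662). It stood at 5.31 and 4.07 CPM in control and 6.28 and 5.21 CPM in *CDYL*-sh. The *EFNB2* groups overlapped (log2 fold change 0.29, 95% interval -0.17 to 0.76, adjusted p = 0.350). The long noncoding RNA gene ENSG00000284966 on the opposite strand covers 36.4% of its exonic length in GENCODE release 44 and has no values in the table used here.

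Over the 10 members, 0 rose, 1 fell and 9 did not pass the test. The 1 of 10 called compares with 25.7% called over all genes tested. At an unadjusted p under 0.05 the same counts were 0 higher and 1 lower, and DESeq2 also called 0 as higher. The fold changes were below 0 for 6 members and above 0 for 4, with a median of -0.11 against 0.01 over all genes tested. In CPM the groups did not overlap for 8 of 10 members, 6 of them lower and 2 higher in *CDYL*-sh, where 64.3% of all genes tested did not overlap. In FPKM the groups of 4 members did not overlap, *EPHA2*, *EPHB2*, *EPHB3* and *EFNB1*, all 4 lower in *CDYL*-sh, where 59.2% of all genes tested did not overlap and 28.8% did so with *CDYL*-sh lower.

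**Figure D2:**
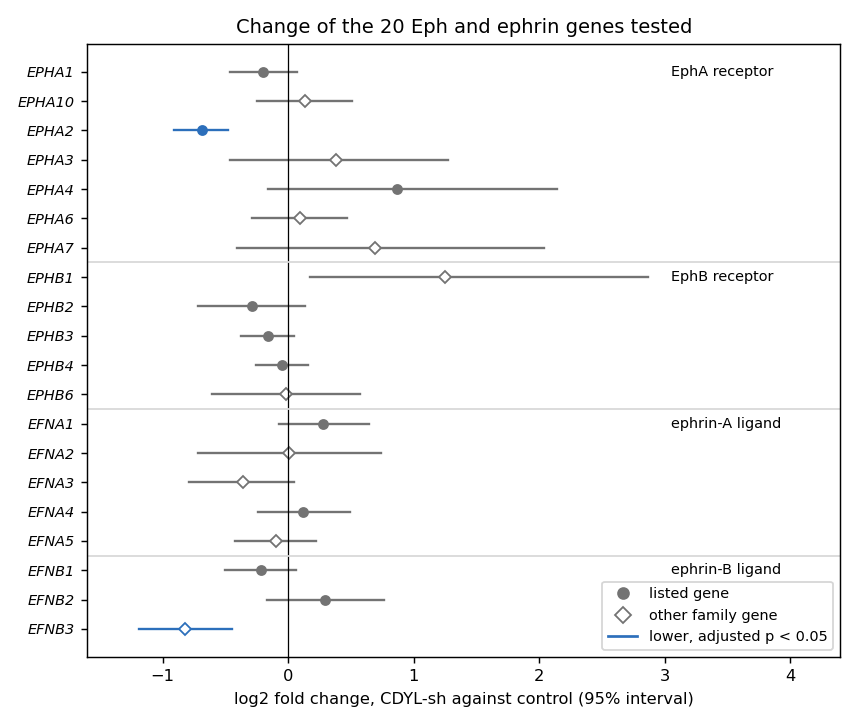
Log2 fold change of *CDYL*-sh against control with its 95% interval for the 20 tested genes of the family, grouped by class, with filled circles for the 10 listed genes and open diamonds for the others. The intervals of *EPHA2* and *EFNB3*, in blue, lie below 0 and passed the test, while *EPHB1* lies above 0 without passing after adjustment.

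The levels of receptors and ligands were also compared within a library, which does not depend on scaling between libraries. The summed FPKM of the 3 EphA members was 83.6 and 82.2 in control and 54.5 and 55.9 in *CDYL*-sh, and that of the 2 ephrin-A members was 20.1 and 23.2 in control and 22 and 27.7 in *CDYL*-sh. Family genes outside the list were left out on both sides, such as *EPHA6* (mean 6.19 FPKM in control), *EFNA3* (8.21) and *EFNA5* (5.46). The ratio of the EphA to the ephrin-A members was 4.17 and 3.55 in control and 2.48 and 2.02 in *CDYL*-sh. The geometric mean of this ratio in *CDYL*-sh was 58.2% of that in control, and the groups did not overlap. *EPHA2* made up most of the EphA sum, with 71.41 and 69.45 FPKM in control and 44.03 and 43.56 in *CDYL*-sh. This ratio is therefore not a result separate from the *EPHA2* call.

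The ratio of *EPHA2* to *EFNA1* moved furthest of the 4 ratios computed. It was 8.42 and 6.49 in control and 4.23 and 3.49 in *CDYL*-sh, where the geometric mean was 52.0% of that in control. The ratio of *EPHB4* to *EFNB2* was 28.1 and 37.9 in control and 24.4 and 26.2 in *CDYL*-sh. The ratio of the EphB to the ephrin-B members was 13.2 and 13.1 in control and 13.3 and 14 in *CDYL*-sh. Its geometric mean in *CDYL*-sh was 104% of that in control. This ratio leaves out *EPHB1*, *EPHB6* and *EFNB3*, which are not members. Of these, *EFNB3* was called lower, with 4.66 and 5.73 FPKM in control and 2.71 and 3.24 in *CDYL*-sh. Each of the 4 ratios gave p = 0.333 in a two-sided exact permutation test, the smallest value that 2 libraries against 2 allow, so none could pass. An mRNA ratio in a bulk sample does not tell whether receptor and ligand are in the same cells.

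**Figure D3:**
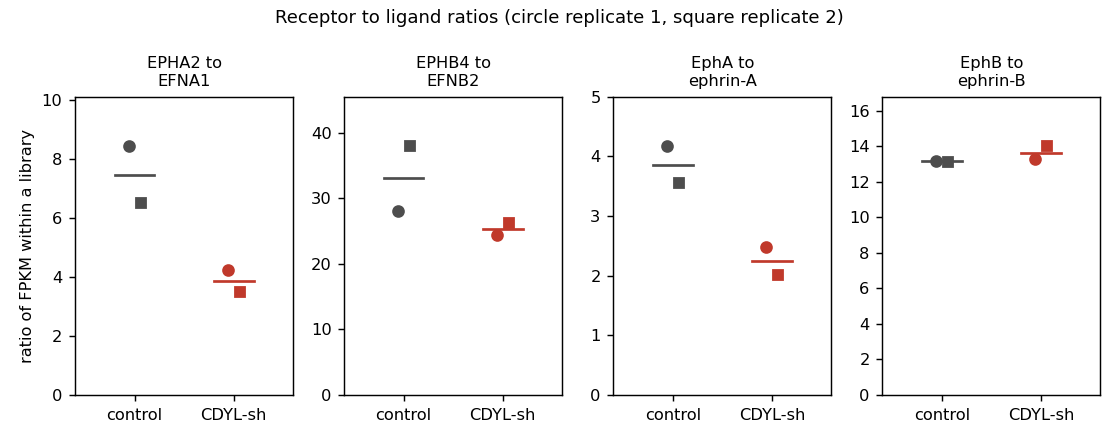
Ratio of receptor to ligand FPKM within each library for *EPHA2* to *EFNA1*, *EPHB4* to *EFNB2*, the EphA to the ephrin-A members and the EphB to the ephrin-B members, with points for libraries (circle replicate 1, square replicate 2), lines for group means and axes from 0. Both EphA ratios are lower in both *CDYL*-sh libraries, and *EPHA2* makes up most of the receptor level in both. The ratio of the EphB to the ephrin-B members, which leaves out *EFNB3*, stays between 13.1 and 14 in all 4 libraries.

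Among the other 12 genes of the family, 10 were tested and *EFNB3* was the 1 that fell. *EFNB3* encodes ephrin-B3 and is on chromosome 17, plus strand (7705202 to 7711372). It stood at 13.5 and 17 CPM in control and 7.75 and 9.56 CPM in *CDYL*-sh. The groups were well apart (log2 fold change -0.82, standard error 0.18, 95% interval -1.19 to -0.45, adjusted p = 0.00234). It passed in 15 of 17 alternatives, and not with limma on log2 FPKM, where the adjusted p was 0.106 with a pseudocount of 1 and 0.0989 with 0.1. In FPKM it was 4.66 and 5.73 in control and 2.71 and 3.24 in *CDYL*-sh, between *EFNB1* and *EFNB2*.

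The remaining family genes tested had log2 fold changes from -0.36 to 1.25, and 0 rose. At an unadjusted p under 0.05, 1 was higher, *EPHB1*, a receptor of ephrin-B ligands that is singled out here after its values were seen. It had 8 and 4 counts in control and 21 and 11 counts in *CDYL*-sh (log2 fold change 1.25, 95% interval 0.17 to 2.87, adjusted p = 0.0899). *EFNA3*, also named after its values were seen, had a log2 fold change of -0.36 (adjusted p = 0.191) and passed without control replicate 1 (-0.59, adjusted p = 0.038). *EPHA5* and *EPHA8* did not pass the filter on low counts. In all, 2 of the 20 family genes tested were called, or 1 in 10 of them, against 25.7% of all genes tested.

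The genes whose products act with the family moved in both directions. Of 58 signalling genes listed by role, 56 were tested, and 12 rose and 10 fell, together 39.3% against 25.7% of all genes tested. Their median log2 fold change was 0.07.

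Of the proteases that cut Eph receptors and ephrins, *ADAM10*, the sheddase of ephrin-A ligands, rose from 41.1 and 37.4 CPM in control to 62.6 and 66.1 CPM in *CDYL*-sh (log2 fold change 0.71, standard error 0.11, adjusted p = 0.000204). In CPM both *CDYL*-sh libraries were above the controls. In FPKM the groups overlapped, with 16.68 and 14.4 in control and 23.41 and 15.78 in *CDYL*-sh, and limma on the log2 scale of FPKM + 1 gave 0.29 (adjusted p = 0.39). *NCSTN*, a subunit of gamma-secretase, was at the threshold (-0.30, adjusted p = 0.0495) and passed in 10 of 17 alternatives, not without control replicate 1, control replicate 2 or *CDYL*-sh replicate 2 (adjusted p = 0.0948 to 0.417). The other 3 proteases did not pass. Among the Src family and Abl kinases, 6 were tested. *ABL1*, a cytoplasmic kinase that signals to actin, fell from 121 and 125 CPM to 74.5 and 67.7 CPM (-0.79, adjusted p = 4.2e-05). Of the Src family kinases, *FYN* fell (-0.53, adjusted p = 0.0369) and *YES1* rose (0.34, adjusted p = 0.0441), and neither call was firm. *FYN* passed in 10 of 17 alternatives, not with DESeq2 (adjusted p = 0.0849) nor without control replicate 1 or either *CDYL*-sh library (adjusted p = 0.115 to 0.195). Its FPKM groups overlapped, and limma on log2 FPKM gave -0.01. *YES1* passed in 8 of 17 alternatives.

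Of the 9 adaptors, which bind the phosphorylated receptor or its partners, *GRB7* rose (0.65, adjusted p = 0.00105), and *CRKL* (-0.57, adjusted p = 0.00114) and *ANKS1A* (-0.48, adjusted p = 0.00782) fell. *GRB7* and *CRKL* each passed in 15 of 17 alternatives. *ANKS1A* passed in 14, and was -0.34 without *CDYL*-sh replicate 2. Of the 11 GTPase exchange factors and activators tested, 2 rose and 0 fell. *TIAM1*, an exchange factor for Rac, stood at 3.16 and 2.90 CPM in control and at 5.86 and 5.89 CPM in *CDYL*-sh (0.94, adjusted p = 0.00453). *VAV3*, an exchange factor of the Vav family, rose from a level near 1 CPM (1.16, 95% interval 0.41 to 2.06, adjusted p = 0.0279). It passed in 12 of 17 alternatives, its FPKM groups overlapped, and the adjusted p was 0.122 when control replicate 1 was left out and 0.347 when *CDYL*-sh replicate 2 was. *NGEF*, the ephexin that is bound by EphA4, did not pass (0.29, adjusted p = 0.0914).

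The genes *ROCK1* and *ROCK2*, which encode kinases that act on myosin, both rose. *ROCK1* stood at 23.4 and 18.5 CPM in control and at 34.8 and 37.0 CPM in *CDYL*-sh (0.77, adjusted p = 0.000463). *ROCK2* stood at 15.6 and 10.2 CPM in control and at 21.5 and 22.3 CPM in *CDYL*-sh (0.76, adjusted p = 0.00331). The control libraries differed more from each other than the *CDYL*-sh libraries for both genes, and the groups did not overlap. *PTK2*, focal adhesion kinase, rose as well (0.63, adjusted p = 0.00119), and *LIMK1*, which phosphorylates cofilin, fell (-0.37, adjusted p = 0.0149). *PTK2* passed in 15 of 17 alternatives and *LIMK1* in 13.

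*CBL*, a ubiquitin ligase that marks activated receptor tyrosine kinases for degradation, had the most negative fold change of the 56. It stood at 41.0 and 33.6 CPM in control and at 15.3 and 16.1 CPM in *CDYL*-sh (-1.24, standard error 0.14, adjusted p = 6.87e-06). Both *CDYL*-sh libraries were below 20 CPM and both controls above 30 CPM. The phosphatase gene *PTPN13* rose (0.48, adjusted p = 0.0314) and passed in 11 of 17 alternatives, and *INPPL1*, the lipid phosphatase SHIP2 that binds EphA2, did not pass (-0.14, 95% interval -0.36 to 0.09).

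Among partners of ephrin-B in reverse signalling, *SDCBP* (0.42) and *PARD6A* (0.51) rose, and *RGS3* (-0.51) and *STAT3* (-0.33) fell, of 7 tested. *SDCBP* and *PARD6A* each passed in 13 of 17 alternatives, and *RGS3* in 15. *STAT3* passed in 11 of 17 alternatives, with an adjusted p of 0.152 when control replicate 1 was left out and of 0.452 when *CDYL*-sh replicate 2 was. Of the 3 kinases listed for the serine site through which EphA2 acts without ligand, *AKT1* fell from 320 and 353 CPM to 231 and 249 CPM (-0.49, adjusted p = 0.00266). *RPS6KA3*, which encodes the kinase RSK2, rose from 13.7 and 10.1 CPM to 22.1 and 18.1 CPM (0.75, adjusted p = 0.00298). *AKT1* passed in all 17 alternatives and *RPS6KA3* in 14, and limma on the log2 scale of FPKM + 1 gave 0.52 for *RPS6KA3* (adjusted p = 0.214). The groups did not overlap for either gene, and the directions were opposite.

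**Figure D4:**
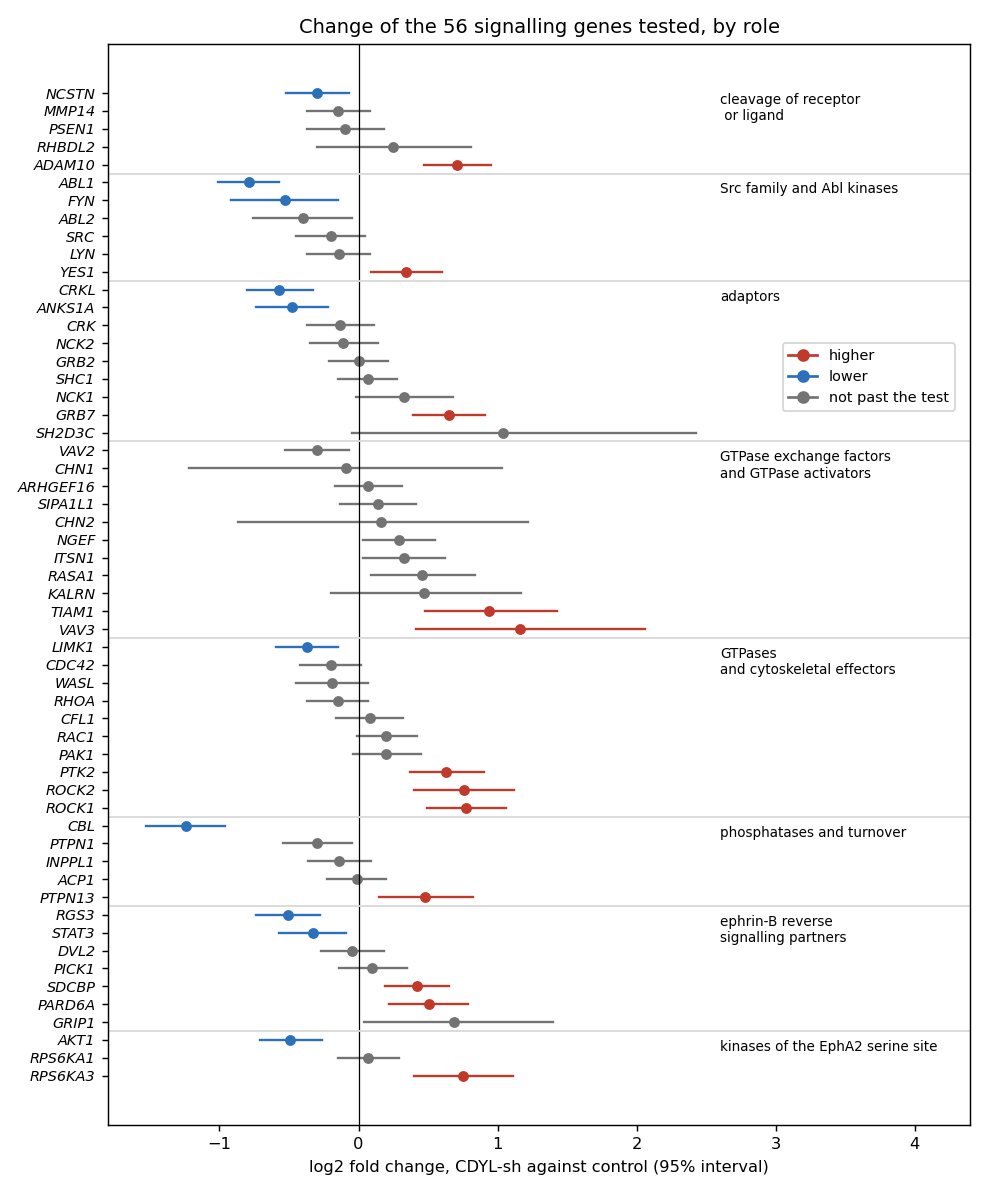
Log2 fold change of *CDYL*-sh against control with its 95% interval for the 56 tested signalling genes, grouped by role and ordered by fold change within a role, with red for the 12 that were higher, blue for the 10 that were lower and grey for the rest. Calls in both directions occur in every role but the exchange factors and activators, where 2 were higher and 0 lower.

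The direction of the signalling calls went with the GC content of the genes. Of the called genes with an exonic GC content under 45%, 9 were higher and 0 lower, and of those with 45% or more, 3 were higher and 10 lower. Over all genes tested, 27.4% of those under 40% GC were higher and 4.59% lower, against 9.78% and 17.1% of those from 55% to 60% GC and 11.4% and 13.4% of those from 60% to 65% GC, the class of *EPHA2*. With offsets for GC content and length the signalling genes gave 14 higher and 14 lower. In that fit *ADAM10* was 0.39, *ROCK1* 0.53 and *ROCK2* 0.50, and all 3 still passed, while *YES1* (0.16) and *SDCBP* (0.23) did not. Without *CDYL*-sh replicate 2 the counts were 7 higher and 5 lower, and *ABL1* and *AKT1* were the 2 signalling genes called in all 17 alternatives. Of the members, 8 had a GC content of 55% or more, with *EPHA2* at 60.4%.

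Markers of other cell types were low. Of 6 stromal markers, 3 were at 0 in all libraries (*COL3A1*, *DCN* and *COL6A3*), and the summed FPKM of the list was 4.08 to 4.33 in control and 1.72 to 3.13 in *CDYL*-sh. The 5 endothelial markers summed to 0.67 to 0.83 FPKM in control and 1.78 to 1.88 in *CDYL*-sh. Of 5 leukocyte markers, *CD3E* was at 0 in all libraries and *PTPRC* at 0 or 1 count, and the list summed to 6.07 to 8.65 FPKM in control and 11.9 to 14.8 in *CDYL*-sh, most of it *CD68*. These sums moved between the groups, and their part in the values of *EPHA2*, *EFNB3* and the signalling genes was not tested. In bulk RNA, fewer cells with a transcript and less of it per cell cannot be told apart.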

How the data were processed

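Total RNA of Ishikawa cells was made into 4 libraries with the TruSeq kit and sequenced as paired-end reads. The authors used TopHat for alignment to GRCh38.p10. RSEM and edgeR are named as well, in the processing notes of the submitters. An orientation mode is stated for the alignment. The annotation release and the strand setting of the counting are not given in the sources used here. The deposited table holds, for each gene and library, an expected count, which is an estimate that need not be whole, and an FPKM, which the authors normalized for length and depth.

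Here expected counts were rounded, filtered (filterByExpr) and scaled by TMM in edgeR 4.0.16, and *CDYL*-sh was tested against control with the quasi-likelihood test (glmQLFit, glmQLFTest, prior count 2), with Benjamini-Hochberg adjustment over 16158 genes and a threshold of 0.05. The 95% intervals come from the unshrunken coefficients of that fit. Depth was 22341852 to 27688447 counts per library. Symbols were found for 98.1% of identifiers and for all 104 listed genes, and positions and GC content came from GENCODE release 44 on GRCh38. FPKM were used for levels, shares and ratios, without a model. Exonic GC content was known for 98% of the genes tested.

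The members, the lists of signalling and marker genes and the tests were chosen with earlier results of these data known, and the lists are textbook lists. All members and *CDYL* are named, with the other family genes past the test, up to 4 past the test per signalling role by adjusted p, and genes that overlap a member. *NGEF*, *INPPL1*, *EPHA5*, *EPHA6*, *EPHA8*, *EPHB6*, the single marker genes and the genes marked so in the text were named outside this rule after their values were seen. Alternatives were other scalings and filters, unrounded counts, DESeq2 1.42.0, limma 3.58.1 (voom, or log2 FPKM), GC and length offsets (mgcv 1.9.3), a block for the replicate number, and omission of each library in turn. The main edgeR fit was tested on simulated counts.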

Additional observations from a re-analysis of the deposited data

How the results depend on the processing

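*CDYL* and *EPHA2* passed in all 17 alternatives, and no called gene named here changed direction. *EFNA4*, not called, was 0.12 and ran from -0.09 (without *CDYL*-sh replicate 2) to 0.31 (without *CDYL*-sh replicate 1). limma on log2 FPKM called fewer genes, 224 higher and 237 lower with a pseudocount of 1 and 255 and 252 with 0.1. There the members stayed at 0 higher and 1 lower, the other family genes gave 0 lower, and the signalling genes gave 0 higher and 2 lower (*ABL1* and *AKT1*). *EPHA4*, with a mean under 0.5 FPKM, had no value in it. Without 1 library, all genes gave 1159 to 2078 higher and 923 to 1928 lower, the lowest counts of each without *CDYL*-sh replicate 2. In these fits the members gave 0 to 1 higher (*EFNA1*, without control replicate 2), the other family genes 1 to 2 lower, and the signalling genes 7 to 12 higher and 5 to 10 lower, where a group's lone library is taken to vary as the other libraries do.

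Deviations from the group means of libraries with the same number correlated at 0.03. With 2 libraries per group this does not settle whether the replicate numbers pair the libraries, and the labels do not state it. A fit with the replicate block gave 2812 genes higher and 2581 lower, 0 members higher and 1 lower, 1 other family gene lower, and 15 signalling genes higher and 13 lower. The replicate block with GC and length offsets gave 3316 genes lower, 1 member higher (*EFNA1*) and 16 signalling genes lower. With CPM in place of FPKM the log2 ratio of EphB to ephrin-B members in *CDYL*-sh over control was -0.01 and not 0.05. Shares of the family's level in control also moved with CPM, which is not scaled for length. *EPHB3* was at 33.2% and not 28.6%, and *EPHB4* at 17.8% and not 14.2%. *EFNA1* was at 1.56% and not 3.74%, and *EFNA4* at 1.58% and not 4.7%, while *EPHA2* was at 28.2% and not 27.5%. The causes of these changes were not tested. Depth limits *EPHA4* and *EPHB1*, with 4 to 26 counts in a library.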

Other observations

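Beyond the genes of the comparison, *EPHA6*, a receptor mostly described in neural tissue, was read at 7.79 and 7.54 CPM in control and at 7.93 and 8.43 CPM in *CDYL*-sh. Its counts and FPKM imply a length of 1.13 to 1.36 kb, against 16254 bp for its canonical transcript in GENCODE release 44. *EPHB6*, a receptor without kinase activity, implied 1.3 to 2.47 kb. Among the members, *EPHB2* implied 3.67 to 4.26 kb, against 11035 bp for its canonical transcript. Over the 11040 genes with at least 100 counts in every library, the highest implied length of a gene was a median of 1.08 times its lowest, and 6.12% of these genes exceeded 1.5 times. Whether these reads come from whole transcripts of the receptors was not tested.

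Within the marker lists, 2 keratin genes moved in opposite directions, with *KRT19* higher by a log2 fold change of 0.70 and *KRT18* lower (-0.34). *PECAM1*, an adhesion molecule best known from endothelium, rose with the *CDYL* shRNA, from 1.62 and 1.96 CPM to 5.21 and 6.34 CPM. Its endothelial list did not move as a whole. *CDH5* went the other way without passing the test, from 0.61 and 0.867 CPM to 0.25 and 0.317 CPM (-1.19, adjusted p = 0.0897). *VWF* was higher and did not pass either (0.62, adjusted p = 0.165). *KDR* and *TEK* were removed by the filter on low counts.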
